A study of Mus musculus with 6 samples.

Results

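The genes described here encode the machinery that carries proteins into mitochondria and keeps them folded or degrades them: matrix chaperones, proteases of the matrix and inner membrane, and subunits of the translocases of the outer membrane (TOM) and inner membrane (TIM). A list of 38 genes was drawn up by function, with earlier results of these data known. Every probe set whose platform annotation names 1 of these genes alone was taken. All 38 genes were found, at 86 of 45037 probe sets tested, out of 18193 genes that the annotation names. The arrays measured total RNA from cortex of mice without HtrA2 (HtrA2 KO, 3 arrays) and of wild type (WT) littermates (3 arrays), all at postnatal day 29 and without a further treatment in the labels. HtrA2 is a protease of the serine class that sits between the mitochondrial membranes. The labels give neither the allele nor the strain, and nothing in them says whether the arrays hold different animals. The p-values therefore measure only how far these samples spread, which may be technical. The submitters state that they had no evidence of neuron loss in this region.

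Most mitochondrial proteins are made in the cytosol as precursors. They are recognised by receptors of the TOM complex, cross the outer membrane through its pore and are handed to the TIM23 complex, which leads to the matrix, or through small TIM chaperones to the TIM22 complex, which inserts carriers into the inner membrane. In the matrix, mitochondrial Hsp70 pulls the chain in, a processing peptidase removes the targeting signal, and the Hsp60 and Hsp10 chaperonin folds the product. Proteases such as Lon and ClpXP remove proteins that fail to fold, and a rise of these chaperones and proteases is a classical readout of the mitochondrial unfolded protein response in worms and mammalian cells.

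Values are levels on the log2 scale after RMA, a method that corrects background, brings arrays to a common distribution and summarises the probes of a set. Differences are HtrA2 KO minus WT, ± is the standard error of a difference unless called SD, and n = 3 in each group. Differences were tested with limma, p-values were adjusted over all 45037 probe sets by the Benjamini-Hochberg method, and a difference passed at an adjusted p under 0.05. Levels of different probe sets are not comparable with each other. Of Htra2's probe sets, 1460495_s_at read 6.42, 7.08 and 6.45 in HtrA2 KO replicates 1, 2 and 3, against 8.89, 8.86 and 9.02 in WT (difference -2.27 ± 0.17, adjusted p = 0.00227). The other, 1436269_s_at, read 9.35, 9.35 and 9.27 in HtrA2 KO, against 8.23, 8.12 and 8.28 in WT (1.11 ± 0.08, adjusted p = 0.00169). No source used here places these probes on the allele. The higher probe set therefore checks no label.

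HtrA2 KO replicate 2 stood apart. Its mean absolute deviation from its group's mean over all probe sets was 0.136, against 0.0956 and 0.0941 in the other HtrA2 KO arrays and 0.0618 to 0.0789 in WT arrays. WT replicate 2 read 12.86 for Ttr, a transcript of choroid plexus, while the other WT arrays read 8.46 and 8.62 and the HtrA2 KO arrays 7.32 to 7.61. Y-linked transcripts averaged 7.97, 7.76 and 4.02 in HtrA2 KO replicates 1 to 3, against 4.03, 7.74 and 7.73 in WT, so each group held 1 array at the low level. The neuron transcripts Snap25, Syt1 and Rbfox3 read at least 13.64, 13.71 and 12.75 on every array, above array medians of 6.40 to 6.46.

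Of the 38 genes, 1 passed the test in HtrA2 KO cortex: Hspa9, the gene for mitochondrial Hsp70, which was higher. Counted over all members, 2 of 86 probe sets passed as higher in HtrA2 KO (2.33%) and 0 as lower, which is 1 gene of 38 higher and 0 lower. Over all probe sets 0.884% passed as higher and 0.884% as lower, 1.77% in either direction, and by gene 1.64% and 1.67%. At an unadjusted p under 0.05, limma gave 15 member sets higher (17.4%, against 8.33% of all probe sets) and 2 lower (2.33%, against 8.55%). The groups did not overlap at 24 member sets with HtrA2 KO higher (27.9%, against 11.6% of all) and at 5 with HtrA2 KO lower (5.81%, against 11.6%). Differences were above 0 at 57 of 86 sets, or 66.3%, against 51.3% of all. The shares over all probe sets include dim sets and sets with no gene symbol, and were not matched to the members for level. Several member sets can come from 1 gene, as both sets that passed do, and Hspa9 and Clpp each gave more than 1 of the 15. The members were listed with earlier results of these data known, so the shares are a description and no test of the list. The median difference over the 38 genes, with the brightest set for each, was 0.06, against 0.02 over all 18193 genes, and by class it was 0.10 for matrix chaperones, 0.11 for proteases, 0.06 for scaffolds, 0.005 for the outer membrane, 0.01 for small TIM chaperones and -0.03 for TIM22 and TIM23 subunits.

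**Figure D1:**
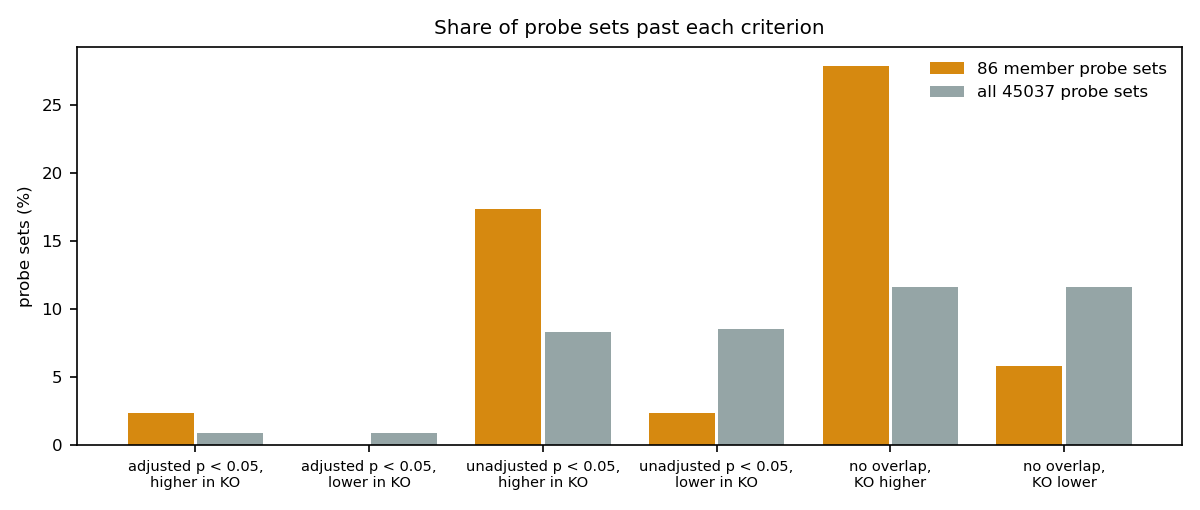
Percentage of probe sets (vertical axis, from 0) past each criterion, for the 86 member sets and for all 45037. At an unadjusted p under 0.05 by limma and without overlap, member shares are larger where HtrA2 KO is higher, such as 27.9% against 11.6%. They are smaller where it is lower. The adjusted counts, 2 member sets of 1 gene higher and 0 lower, are too few to set against 0.884% of all in each direction. Both member sets past the adjusted test are of Hspa9, and the shares over all probe sets include dim sets.

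Among the matrix chaperones, Hspa9 rose and the other 6 did not pass the test. Hspa9 encodes mitochondrial Hsp70, also called mortalin, which drives import into the matrix and folds the arriving chains. At probe set 1418503_at it read 10.93, 10.81 and 10.99 in HtrA2 KO, against 10.24, 10.24 and 10.34 in WT. Every HtrA2 KO array lay above every WT array. The difference was 0.64 ± 0.08, a 1.56-fold rise (95% interval 0.46 to 0.82 on the log2 scale, adjusted p = 0.0141). At 1418504_at the levels were 11.50, 11.46 and 11.51 in HtrA2 KO, against 10.97, 10.97 and 10.99 in WT. Here the spread within either group was small (SD 0.0292 in HtrA2 KO and 0.0124 in WT), and the rise was 0.51 ± 0.07, or 1.43-fold (adjusted p = 0.0159).

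The remaining 3 Hspa9 probe sets did not pass. The set 1447728_x_at, whose suffix marks probes that may also match other transcripts, read 8.55, 8.60 and 8.63 in HtrA2 KO, against 8.16, 8.31 and 8.20 in WT (difference 0.37 ± 0.07, adjusted p = 0.053). The set 1431274_a_at read 7.84, 8.22 and 8.03 in HtrA2 KO, against 7.78, 7.51 and 7.47 in WT (0.45 ± 0.12, adjusted p = 0.12). At both, the groups did not overlap and the direction was that of the sets that passed. The dimmest set, 1453811_at, read 6.28, 6.12 and 6.16 in HtrA2 KO, against 6.31, 6.26 and 6.34 in WT, with overlapping groups (-0.11 ± 0.08, adjusted p = 0.52).

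The Hspa9 call depended on which arrays were kept. It held without HtrA2 KO replicate 1 or 2 and when the Y-linked level was added to the fit (adjusted p = 0.0308 and 0.0356). It was lost without HtrA2 KO replicate 3 or without any 1 of the WT arrays, where the adjusted p was 0.0566 to 0.104 for 1418503_at and 0.0709 to 0.119 for 1418504_at. The differences themselves stayed between 0.60 and 0.69, and between 0.50 and 0.53, in these 6 omissions, and the count of all probe sets past the test was 65 to 107 in the 4 omissions that ended the call, against 796 with all arrays. Without WT replicate 2, which carried the choroid plexus signal, the Hspa9 differences were 0.62 and 0.51.

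**Figure D2:**
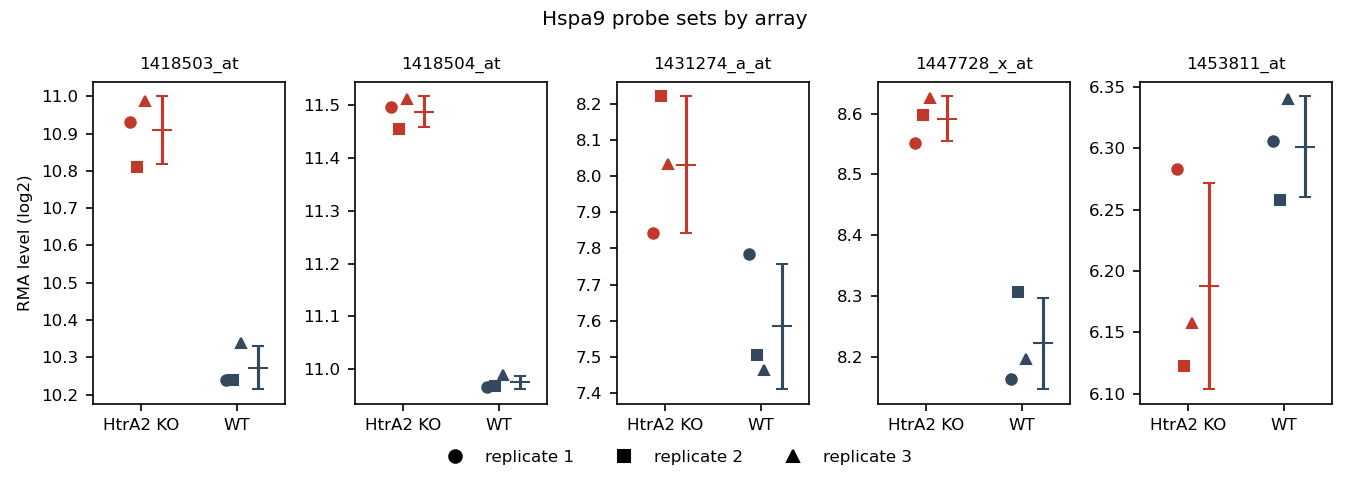
RMA level on the log2 scale (vertical axis, own range in each panel) of the 5 Hspa9 probe sets on each HtrA2 KO and WT array, with the group mean and SD as bars. At 4 of the 5 sets all HtrA2 KO arrays lie above all WT arrays, and the set 1453811_at overlaps.

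Markers of cell types differed between the groups as well. Marker levels averaged over a list were lower on all HtrA2 KO arrays for neurons (12.46 to 12.55 against 12.67 to 12.70 in WT, 4 of 4 markers measured), excitatory neurons (10.01 to 10.14 against 10.43 to 10.46, 3 of 4), interneurons (11.17 to 11.22 against 11.37 to 11.37, 4 of 4) and oligodendrocytes (11.29 to 11.44 against 11.55 to 11.69, 3 of 4). The same held for microglia (9.16 to 9.36 against 9.56 to 9.75 in WT, 4 of 4), for blood (5.01 to 5.42 against 5.60 to 5.66, 3 of 4) and for choroid plexus (5.62 to 5.79 against 5.84 to 7.57, 4 of 4), where Ttr was the 1 marker whose groups did not overlap. They were higher in HtrA2 KO for meninges (9.60 to 10.06 against 9.30 to 9.59, 6 of 6) and endothelium (8.79 to 8.85 against 8.62 to 8.73, 4 of 4). The meningeal means were barely apart, with 9.597 on HtrA2 KO replicate 2 against 9.592 on WT replicate 3. The means over the striatum list overlapped (7.58 to 7.68 in HtrA2 KO against 7.47 to 7.63 in WT, 3 of 4). Not every marker followed its list. Pvalb and Sst differed by -0.45 and -0.30, while the interneuron markers Gad1 and Gad2 both differed by 0.03 and overlapped. Tbr1 and Neurod6 differed by -0.51 and -0.66, while the excitatory neuron marker Slc17a7 differed by 0.04 and overlapped. Rbfox3, Mbp, Cx3cr1 and Hba-a1 overlapped in other lower lists, and Dcn, Col1a2, Lum, Cldn5 and Flt1 in the higher ones. The mean over the astrocyte list overlapped (11.29 to 11.45 in HtrA2 KO against 11.40 to 11.47 in WT, 4 of 4), but its members differed in opposite directions, each without overlap. Gfap, an intermediate filament of astrocytes, read 10.36, 10.30 and 10.58 in HtrA2 KO, against 9.72, 9.85 and 9.78 in WT, and rose by 0.63 ± 0.09 (adjusted p = 0.0228). Aqp4, the water channel of astrocyte endfeet, read 10.59, 10.43 and 10.56 in HtrA2 KO, against 11.01, 11.08 and 11.27 in WT, and fell (-0.59 ± 0.09, adjusted p = 0.0273). Slc1a3 and Slc1a2, which encode glutamate transporters, differed by -0.19 and -0.14 and did not pass. By limma, 0 markers of the general neuron, interneuron, oligodendrocyte, meningeal, endothelial and choroid plexus lists passed, with 2, 2, 2, 4, 2 and 1 at an unadjusted p under 0.05, while 2 microglial markers, 1 excitatory neuron marker and 1 blood marker fell as well. In tissue RNA, fewer cells of a type and less RNA per cell cannot be told apart. The part of these differences in the Hspa9 rise was not tested.

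The chaperonin genes stayed near WT. Hspd1, which encodes Hsp60, read 12.029, 11.832 and 11.946 in HtrA2 KO, against 11.996, 12.003 and 12.001 in WT (-0.06 ± 0.08, 95% interval -0.24 to 0.11, adjusted p = 0.751). Hspe1, which encodes its partner Hsp10, read 11.65, 11.62 and 11.56 in HtrA2 KO, against 11.53, 11.47 and 11.62 in WT at 1450668_s_at (0.07 ± 0.07, interval -0.10 to 0.24). Its other set, 1422579_at, also differed by 0.07 (adjusted p = 0.72). The intervals of Hspd1 and Hspe1 end below the lower bound of either Hspa9 set that passed, but those sets were picked by passing. The Hspe1 intervals overlap the 95% intervals of Hspa9 sets 1431274_a_at (0.16 to 0.73) and 1447728_x_at (0.20 to 0.54). The interval of Hspa9 set 1453811_at was -0.29 to 0.06. Within arrays, the level of Hspa9 at 1418504_at minus that of Hspd1 was -0.53, -0.38 and -0.43 in HtrA2 KO, against -1.03, -1.03 and -1.01 in WT, a shift of 0.58 with no overlap. Against Hspe1 at 1450668_s_at the shift was 0.44. Hspa9 was chosen for these differences because it had passed, so they are a description. An exact permutation over arrays gave p = 0.1 for each, the smallest value it could reach, so it could not pass at 0.05.

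Hspd1 and Hspe1 lie head to head, and the stretch between their starts is shown because it serves both genes, whose levels stayed close to WT. RefSeq's promoter table for build GRCm38.p6 held windows for 35 of the 38 genes, all but Hspa9, Grpel2 and Afg3l2, with 39 windows in all. Each window runs from 250 bases before a start to 50 after it. The stretch below is chr1:55087933-55088147, plus strand, 215 bases from the inner annotated start of Hspd1, which is read on the minus strand, to the start of Hspe1. An outer start of Hspd1 is also annotated, so the stretch lies within the longer model of that gene. Capitals mark a run of heat shock element units, the binding motif of heat shock factors.
Hspd1-Hspe1: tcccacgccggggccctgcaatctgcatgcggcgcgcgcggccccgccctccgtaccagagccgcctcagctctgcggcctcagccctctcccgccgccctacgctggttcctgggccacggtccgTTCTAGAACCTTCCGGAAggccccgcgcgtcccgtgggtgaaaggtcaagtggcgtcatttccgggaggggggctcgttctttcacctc
The run consists of 2 matches of TTCNNGAA joined by NN, which overlap 1 match of GAANNTTC, and this joined form was chosen after the sequence was seen. Searched on both strands, it occurs in 2 of 39 member windows, which are those of Hspd1 and Hspe1 and share the same bases, and in 5 of all 32851 windows (0.015%). TTCNNGAA alone is in 8 of 39 member windows (20.5%) and in 8.52% of all windows, and GAANNTTC in 4 of 39 (10.3%) and in 7.86%. These matches describe letters only.

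Co-chaperones of Hspa9 lay slightly above WT without passing. Dnaja3, a J-protein that loads clients onto mitochondrial Hsp70, read 10.48, 10.38 and 10.33 in HtrA2 KO, against 10.12, 10.16 and 10.17 in WT at 1449935_a_at (0.25 ± 0.07, adjusted p = 0.144). The groups did not overlap there, but the other Dnaja3 sets differed by only 0.02 and -0.03. Grpel1, the nucleotide exchange factor of mitochondrial Hsp70, differed by 0.19 ± 0.07 (adjusted p = 0.236) and its paralog Grpel2 by 0.19 and 0.06. Trap1, the mitochondrial Hsp90, differed by 0.10 and 0.09. Over the 7 chaperone genes, 13 of their 16 probe sets were above 0, against 51.3% of all probe sets. This count includes 4 sets of Hspa9.

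Proteases had no member past the test among 11 genes and 22 probe sets, though 5 sets were higher and 0 lower at an unadjusted p under 0.05, a threshold that 8.33% of all probe sets passed as higher and 8.55% as lower. Clpp, the proteolytic core of the matrix ClpXP protease, read 10.62, 10.79 and 10.68 in HtrA2 KO, against 10.44, 10.43 and 10.40 in WT at 1416615_at (0.28 ± 0.07, adjusted p = 0.114). Its other set, 1416616_s_at, read 10.18, 10.04 and 10.28 in HtrA2 KO, against 9.87, 9.92 and 9.88 in WT (0.28 ± 0.08, adjusted p = 0.139). The groups were separate at both sets, and the sizes matched. Lonp1, the Lon protease of the matrix, read 9.54, 9.53 and 9.45 in HtrA2 KO, against 9.30, 9.27 and 9.30 in WT (0.22 ± 0.07, adjusted p = 0.163), again without overlap.

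Clpx, the unfoldase that feeds Clpp, split the HtrA2 KO arrays. At 1423447_at it read 9.56, 9.03 and 9.65 in HtrA2 KO replicates 1, 2 and 3, against 9.14, 9.20 and 9.03 in WT (0.29 ± 0.16, adjusted p = 0.414). Replicates 1 and 3 were above every WT array and replicate 2 was just below the lowest one. The dim set 1439342_at read 5.15, 5.01 and 5.12 in HtrA2 KO, against 5.18, 5.15 and 5.29 in WT (-0.12 ± 0.08).

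Among inner membrane proteases, Parl, a rhomboid protease that cleaves within the membrane, differed by 0.28 ± 0.09 (adjusted p = 0.171), and Spg7, a subunit of the m-AAA protease, by 0.26 ± 0.09 at 1427166_a_at (adjusted p = 0.184) and by 0.08 at its dimmer set. The groups did not overlap for Parl or for the first Spg7 set. The other m-AAA subunits, Afg3l1 and Afg3l2, ranged from -0.07 to 0.06 over 5 probe sets. Oma1, which cleaves the fusion protein Opa1 under stress, differed by -0.16 ± 0.12 (adjusted p = 0.559).

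Yme1l1, the i-AAA protease that faces the intermembrane space as HtrA2 does, had 4 probe sets that did not point one way. The brightest, 1450954_at, read 8.82, 8.38 and 8.77 in HtrA2 KO, against 8.79, 8.83 and 8.90 in WT (-0.19 ± 0.12), where replicate 2 alone lay well below WT. The sets 1423361_at, 1423360_at and 1437822_at differed by -0.05, -1.97e-05 and 0.14, and none of the 4 passed. The subunits of the processing peptidase differed by 0.16 and 0.11 for Pmpca and by -0.09 and -0.15 for Pmpcb, so the 2 partners of 1 enzyme lay on either side of 0 without passing.

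Lonp2, a Lon homolog of peroxisomes that is kept here for comparison with Lonp1, had 4 probe sets of unequal behaviour. The dimmest, 1436655_at, read 4.53, 4.73 and 4.47 in HtrA2 KO, against 4.23, 4.19 and 4.08 in WT (0.41 ± 0.09, adjusted p = 0.0713), without overlap. The set 1442258_at differed by 0.22 ± 0.10. The bright sets 1459784_x_at and 1460178_at differed by 0.10 ± 0.19 and -0.02 ± 0.07, and at the first of them replicate 2 read 9.80 while the other HtrA2 KO arrays read 8.98 and 9.17, against 9.16, 9.20 and 9.29 in WT.

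Lonp2 also held the only member window with TGATGNAA, the core of the element bound by ATF4 and CHOP, transcription factors of the stress response. It is shown as the 1 member window in which that element's letters were found. The bases are chr8:86651319-86651568, plus strand, the 250 before an alternative annotated start. The capitals mark the match, at position -25 from that start.
Lonp2: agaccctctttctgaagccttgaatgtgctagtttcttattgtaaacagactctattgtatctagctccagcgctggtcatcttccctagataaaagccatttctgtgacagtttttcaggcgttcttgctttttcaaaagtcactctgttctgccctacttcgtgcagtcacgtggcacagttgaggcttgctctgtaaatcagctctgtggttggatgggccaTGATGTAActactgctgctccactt
The motif is in 1 of 39 member windows (2.56%) and in 3.97% of all 32851 windows, on either strand, and overlaps no other motif searched. The window of the other Lonp2 start does not hold these letters. Further motifs counted were CCAAT in 12 of 39 member windows (30.8%) and 37.4% of all, and GGGCGG in 24 of 39 (61.5%) and 35.7% of all.

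Scaffolds of the inner membrane were close to WT. Phb2, a prohibitin that forms rings around inner membrane proteases, read 10.38, 10.38 and 10.46 in HtrA2 KO, against 10.29, 10.29 and 10.28 in WT at 1416202_at (0.12 ± 0.07, adjusted p = 0.439). At 1460035_at it read 6.76, 6.59 and 6.65 in HtrA2 KO, against 6.76, 6.77 and 6.84 in WT (-0.12 ± 0.08), so its sets opposed each other. Immt, the Mic60 protein of cristae junctions, differed by 0.02 to 0.06 at 3 sets.

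At the outer membrane, Samm50 and Tomm20 had the largest positive differences and Tomm34 the largest negative one. Samm50, which assembles barrel proteins in the outer membrane, read 10.39, 10.38 and 10.46 in HtrA2 KO, against 10.18, 10.08 and 10.09 in WT at 1428068_at (0.29 ± 0.07, adjusted p = 0.0899). At 1455800_x_at it read 11.24, 10.85 and 11.26 in HtrA2 KO, against 10.90, 10.86 and 10.85 in WT (0.25 ± 0.12). The first set was higher on all HtrA2 KO arrays, whereas at the second replicate 2 sat among the WT arrays. The third set, 1440496_at, differed by -0.03.

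Tomm20, the receptor for presequences, had 6 probe sets, more than any other member. Only 1435187_at separated the groups, with 11.63, 11.38 and 11.71 in HtrA2 KO, against 11.13, 11.19 and 11.30 in WT (0.37 ± 0.10, adjusted p = 0.123). The other 5 differed by -0.04 to 0.12 and overlapped. Tomm34, a cytosolic co-chaperone of precursors, read 9.96, 10.20 and 9.86 in HtrA2 KO, against 10.22, 10.28 and 10.20 in WT (-0.23 ± 0.10, adjusted p = 0.29). The pore Tomm40 differed by 0.09, the receptor Tomm22 by -0.02 and -0.06, and the receptor Tomm70a by -0.12 to 0.03 over 5 sets.

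The small TIM chaperones, which escort hydrophobic proteins across the intermembrane space, were nearly level except for Timm9. Timm8b, Timm10 and Timm13 differed by -0.06, 0.04 and 0.01, each with a standard error of 0.07. Timm8a1, whose human counterpart is mutated in a deafness and dystonia syndrome, differed by 0.12 ± 0.08 at 1416346_at and by 0.10 at its other set. Timm9 at 1428010_at read 6.01, 4.98 and 6.35 in HtrA2 KO replicates 1, 2 and 3, against 5.40, 5.39 and 5.22 in WT (0.44 ± 0.30, 95% interval -0.25 to 1.14). Replicates 1 and 3 were above every WT array and replicate 2 was below every one, which made this the widest interval of all members. The brighter Timm9 set, 1449886_a_at, read 8.64, 8.17 and 8.64 in HtrA2 KO, against 8.64, 8.70 and 8.71 in WT (-0.20 ± 0.13).

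In the inner membrane translocases, Timm50, the receptor of the TIM23 complex, read 8.41, 8.34 and 8.33 in HtrA2 KO, against 8.02, 8.18 and 8.19 in WT at 1455456_a_at (0.23 ± 0.08, adjusted p = 0.183), while its other sets both differed by 0.06. Timm22, the core of the carrier translocase, read 9.32, 9.52 and 9.26 in HtrA2 KO, against 9.54, 9.62 and 9.66 in WT at 1448517_at (-0.24 ± 0.09, adjusted p = 0.221). Its dim set 1448518_at read 5.92, 5.95 and 6.07 in HtrA2 KO, against 5.47, 6.05 and 6.19 in WT (0.07 ± 0.17), so the lower level was seen at 1 of 2 sets. The channel subunits Timm23, Timm17a and Timm17b differed by 0.08, -0.10 and by -0.03 and 0.07. Timm44, which tethers mitochondrial Hsp70 to the channel, differed by -0.02 to 0.05 over 3 sets. The 5 Hspa9 sets ranged from -0.11 to 0.64, with 0.51 and 0.64 at the 2 that passed.

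**Figure D3:**
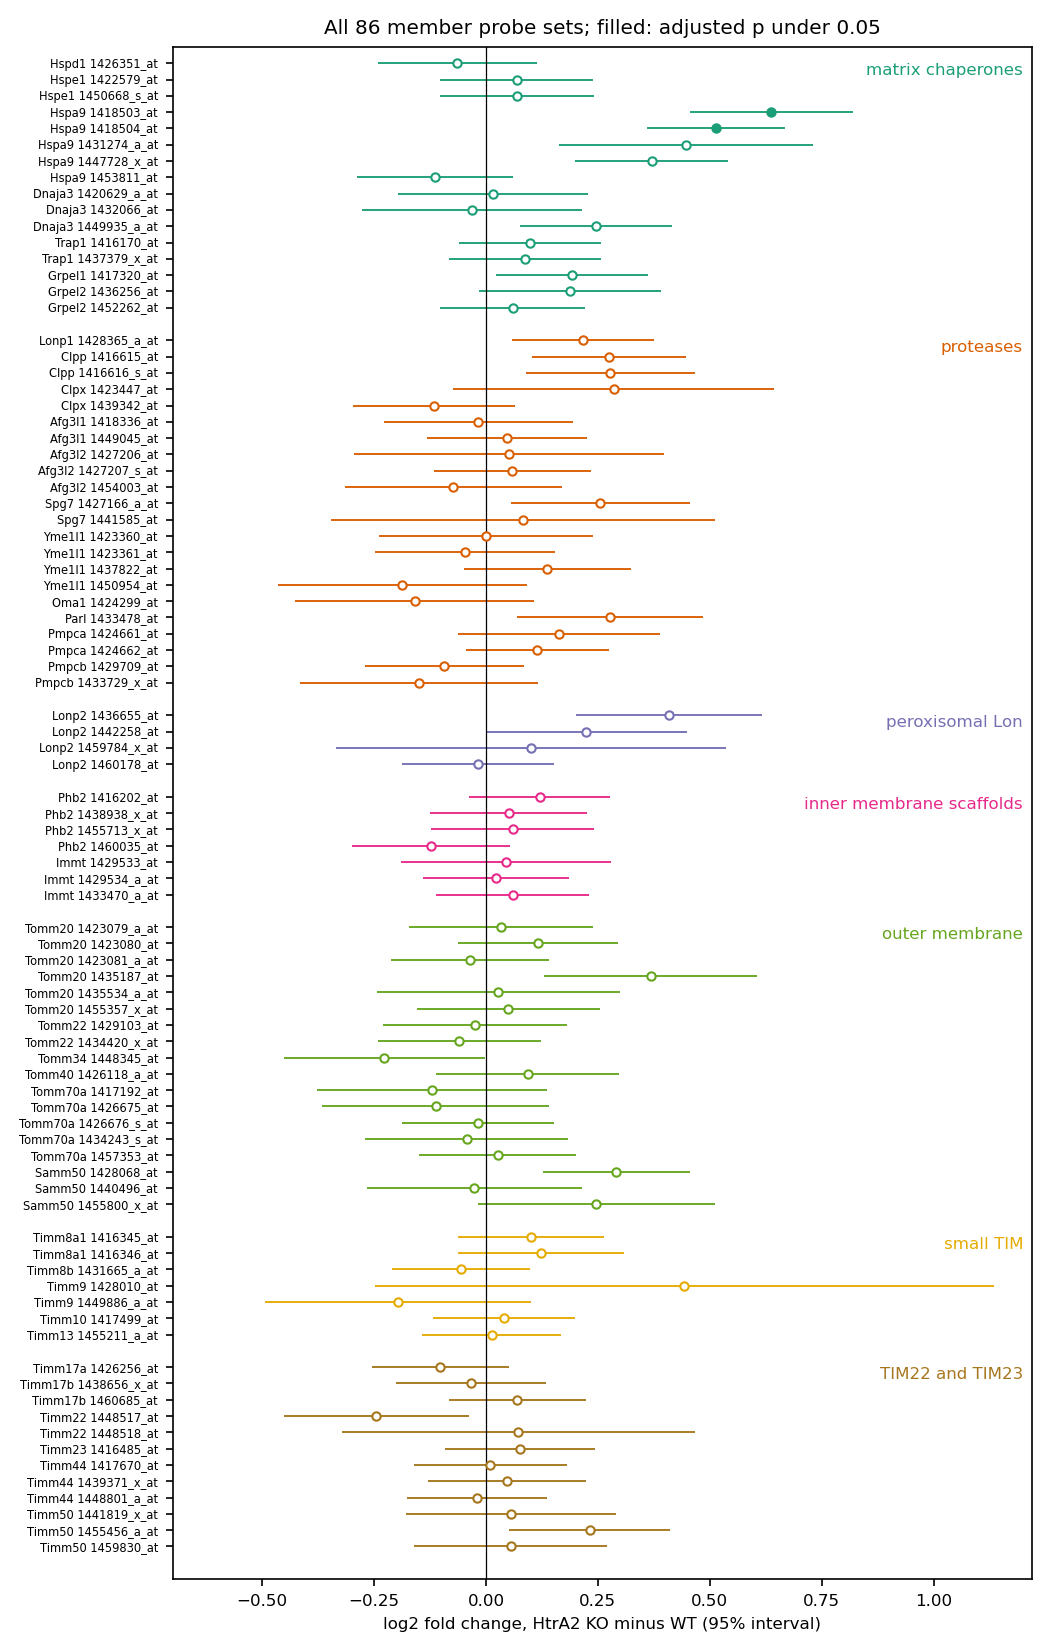
Log2 fold change, HtrA2 KO minus WT, with its 95% interval (horizontal axis), for all 86 member probe sets ordered by role. The filled points, those with an adjusted p under 0.05, are 2 Hspa9 sets, and no interval reaches below -0.50 on the negative side.

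Most member intervals lay close to 0, in a share near that over all probe sets. They rest on the spread of these samples, which may be technical. At 75 of the 86 member sets (87.2%, against 83.6% of all) the 95% interval lay within 0.5 of 0 on the log2 scale, each set taken on its own. The other 11 all reached above 0.5, among them 4 Hspa9 sets, and 0 reached below -0.5. For 29 of 38 genes every probe set differed by less than 0.25. Of 26 genes with several probe sets, 9 had all of them above 0, 2 had all below and 15 had both signs.

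Leaving out HtrA2 KO replicate 2 changed many member calls. At 49 of 86 member sets (57.0%, against 51.8% of all probe sets) it was the HtrA2 KO array farthest from the mean of the other 2, a share near that over all probe sets. WT replicate 3 was the WT array farthest from the other WT arrays at 49 member sets as well (57.0%, against 40.8% of all). At 12 sets (14.0%, against 8.8% of all) HtrA2 KO replicates 1 and 3 lay above every WT array while replicate 2 did not, and at 1 set (1.16%, against 9.71%) they lay below while it did not. Leaving out HtrA2 KO replicate 2 gave 12 of 86 member sets higher (14.0%, against 4.46% of all probe sets) and 2 lower (2.33%, against 2.28%). The share of lower member sets was thus near that over all probe sets. The higher ones then named 9 genes: Hspa9, Clpp, Clpx, Spg7, Parl, Lonp2, Tomm20, Samm50 and Timm9. Those lower were Tomm34 and Timm22 (-0.32 each). In that fit Clpx differed by 0.48 (adjusted p = 0.0202), Timm9 at 1428010_at by 0.84 (adjusted p = 0.0135) and Tomm20 at 1435187_at by 0.47 (adjusted p = 0.0218). With all arrays, none of these 3 passed. The array left out here was the one with the largest deviation from its group's mean. The omission of HtrA2 KO replicate 1 gave 2 member sets higher, and that of HtrA2 KO replicate 3 or of any WT array gave 0.

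**Figure D4:**
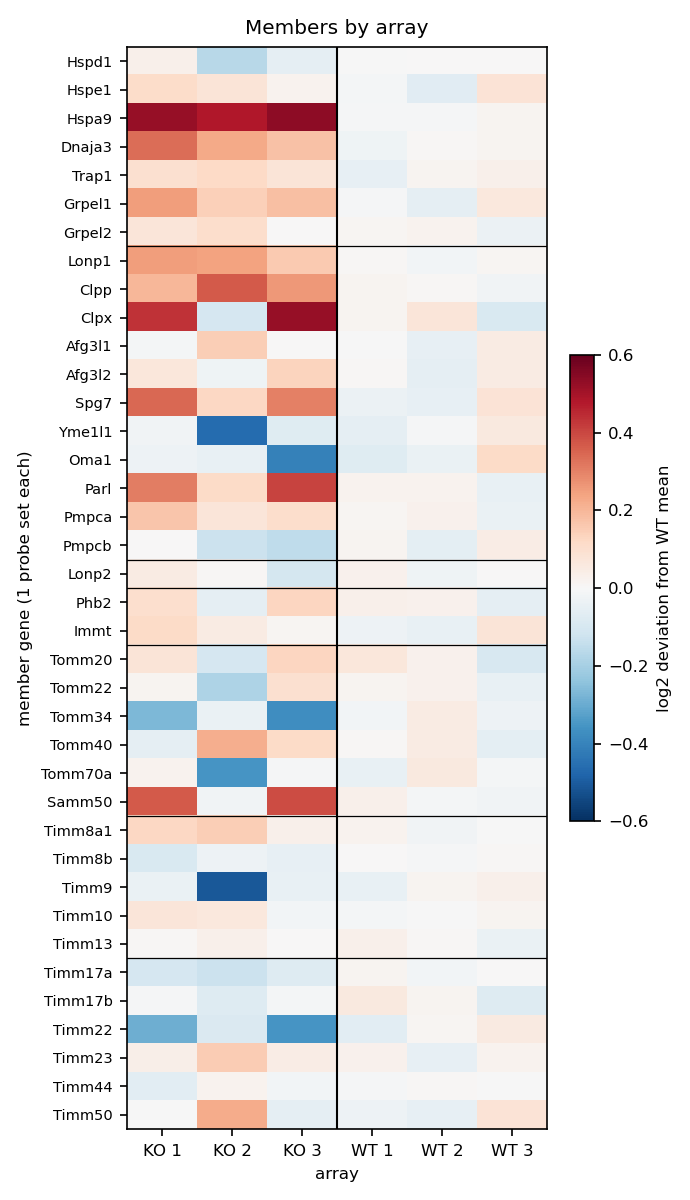
Deviation of each array from the WT mean on the log2 scale (colour), for the brightest probe set of each of the 38 genes (rows, by role), with the HtrA2 KO arrays left of the line and WT arrays right of it. Hspa9 is high on all HtrA2 KO arrays, while Clpx and Samm50 are high on HtrA2 KO replicates 1 and 3 and Timm9 is low on replicate 2.

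Beyond the members, a further list of 41 genes of mitochondrial import and protein quality control was counted, of which 36 were named alone by a probe set (65 sets). Of these, 3 genes rose and 1 fell, the knocked-out Htra2 being counted in both directions. Over all genes, 1.64% passed as higher and 1.67% as lower. Apart from Htra2, the genes that passed were Atf5 and Hscb. Atf5, a stress transcription factor related to the regulator of the mitochondrial unfolded protein response in worms, read 8.78, 8.32 and 8.74 in HtrA2 KO, against 7.45, 7.66 and 7.68 in WT. It rose by 1.02 ± 0.13, or 2.02-fold (adjusted p = 0.0159). Hscb, a J-protein that works with Hspa9 in assembling iron-sulfur clusters, read 8.57, 8.70 and 8.74 in HtrA2 KO, against 8.18, 7.95 and 8.04 in WT, and rose by 0.61 ± 0.09, or 1.53-fold (adjusted p = 0.0212). All HtrA2 KO arrays lay above all WT arrays for both genes, whose calls, like that of Hspa9, were lost without HtrA2 KO replicate 3 or any 1 WT array (adjusted p up to 0.0988 and 0.133).

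Gfer, the sulfhydryl oxidase of the intermembrane space import pathway, read 9.04, 8.80 and 9.08 in HtrA2 KO, against 8.60, 8.57 and 8.44 in WT at 1452272_a_at (0.44 ± 0.10, adjusted p = 0.07). Its other set differed by 0.13. No other gene of the list passed. The median difference over these 36 genes was 0.06, the same as that of the members to 2 decimals.

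**Figure D5:**
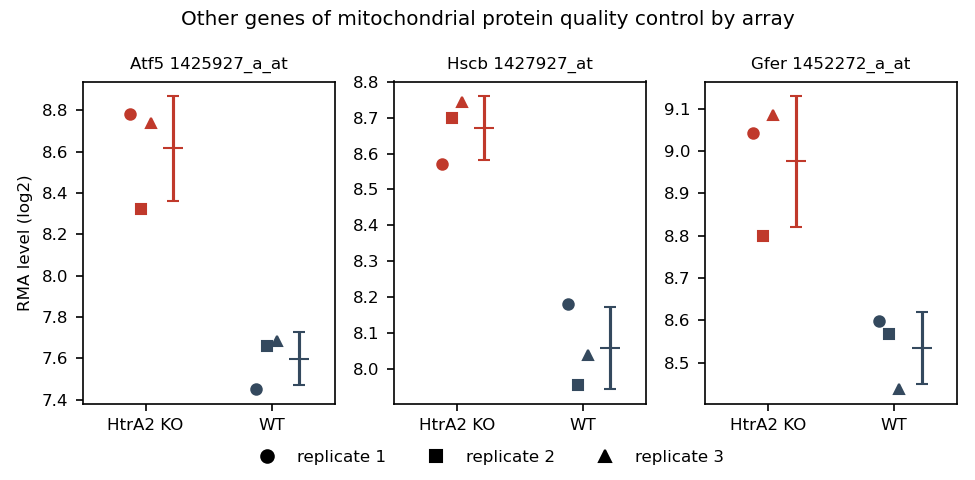
RMA level on the log2 scale (vertical axis, own range in each panel) of Atf5, Hscb and Gfer on each HtrA2 KO and WT array, with the group mean and SD as bars. For each gene the lowest HtrA2 KO array lies above the highest WT array.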

How the data were processed

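Total RNA from cortex was labelled with biotin and hybridised to Affymetrix arrays, per the labels' protocols. The authors deposited values that were read as log2 levels: the submitters' processing notes name RMA with no version, and base 2 was taken from the range of the values. Because RMA equalises the distribution of arrays, a shift common to most genes would be removed. The number of arrays limits the precision.

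From these values 64 control probe sets were left out and 45037 tested with no filter. The annotation gave 34945 probe sets 1 gene symbol, 932 several and 9160 none. HtrA2 KO and WT were compared with limma 3.58.1 in R 4.3.3 (lmFit and eBayes with Benjamini-Hochberg adjustment, group as the only term), a fit checked on simulated data. The brightest probe set stood for a gene where medians are given. Members, lists, tests and the rule for named genes were chosen with earlier results of these data known. The rule named members past the test, and the 2 with the smallest p and the largest difference in each role class (1 in classes under 3 genes). It also named members whose probe sets oppose each other with a spread over 0.3, called further genes and the 4 with the smallest p. Some of their probe sets are given with values by array, and others only with a difference or a range. Alternatives tried were leaving out dim probe sets, other moderation, normalization, centring, weights, covariates and thresholds, and leaving out each array. Same-numbered replicates did not deviate together (correlations -0.196, -0.041 and -0.169).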

Additional observations from a re-analysis of the deposited data

How the results depend on the processing

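With all arrays, 796 probe sets, 2 member sets (1 gene) higher, 0 lower, and 3 further genes higher and 1 lower passed. Array weights gave 4205 probe sets, 13 member sets (9 genes) higher and 2 (2 genes) lower, and 10 further genes higher and 2 lower. Trended, robust moderation gave 1770 probe sets, 5 member sets (3 genes) higher, and 6 further genes higher and 2 lower. Leaving out dim probe sets gave 1361 probe sets and 5 further genes higher, and a second quantile normalization 4 member sets (2 genes) higher. The Y-linked level as a covariate gave 445 probe sets. An adjusted p under 0.10 gave 2035 probe sets, 5 member sets (3 genes) higher, and 5 further genes higher and 2 lower, and one under 0.01 gave 79 probe sets, 0 member sets (0 genes) and 1 further gene higher. Same-numbered replicates share only a number, and with the replicate block 154 probe sets, 0 member sets (0 genes) and 1 further gene higher passed.

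Leaving out 1 array at a time gave 65 to 3037 probe sets, 0 to 12 member sets (0 to 9 genes) higher, 0 to 2 member sets (0 to 2 genes) lower, 1 to 9 further genes higher and 1 to 1 lower. The most came without HtrA2 KO replicate 2. The median member difference ranged from 0.0363 to 0.0689, against 0.0568 with all arrays. Sign changes were followed for 40 named probe sets, 35 of them of members. Among these, the differences that changed sign lay near 0 and had not passed. Yme1l1 1423360_at was 0.006672 with median centring and 0.04274 with array weights, which also gave Samm50 1440496_at 0.0803 and Lonp2 1459784_x_at -0.05633. Without 1 array, the ranges were -0.01381 to 0.1023 for Tomm20 1423079_a_at, -0.05231 to 0.1501 for Tomm20 1435534_a_at, -0.01624 to 0.1281 for Tomm20 1455357_x_at, -0.09591 to 0.09339 for Yme1l1 1423360_at, -0.09773 to 0.0106 for Yme1l1 1423361_at, -0.0901 to 0.06427 for Samm50 1440496_at, -0.1427 to 0.2166 for Timm22 1448518_at, -0.1416 to 0.2675 for Lonp2 1459784_x_at and -0.04942 to 0.02654 for Lonp2 1460178_at. The cause of these changes was not tested. With 3 arrays a group, small differences could not be resolved.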
